A study of Rattus norvegicus with 6 samples.

Results

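The miR-132 and miR-212 locus gives 4 mature miRNAs, rno-miR-132-5p, rno-miR-132-3p, rno-miR-212-5p and rno-miR-212-3p, which were taken by name from the 649 rat miRNAs counted in 6 small RNA libraries. All 4 were listed in every library, and all 4 were among the 336 miRNAs whose mean reached 10 RPM (counts per 1000000 counts of the library) in at least 1 condition. The libraries came from primary cortical neurons of embryonic day 18 Sprague-Dawley rats, grown for 7 days in vitro with an anti-mitotic agent to stop the growth of non-neuronal cells. Neurons in 3 cultures received 100 ng/ml BDNF (brain-derived neurotrophic factor) for 20 min, and neurons in 3 control cultures received the vehicle, 0.1% BSA. Replicates were numbered 1 to 3 in both conditions. The question put to these libraries was whether brief BDNF signalling changes the mature miRNAs of young neurons.

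The miR-132 and miR-212 hairpins lie in tandem and are cut from a shared primary transcript. In neurons this transcript is a textbook target of the activity-dependent transcription factor CREB, and sustained BDNF signalling is known to raise it. Both arms of a hairpin can give a mature miRNA, named 5p for the 5′ arm and 3p for the 3′ arm. MiR-132-3p is the best studied of them, a regulator of dendrite and spine growth. Mature miRNAs are stable compared with their precursors, so their level after a short treatment mostly holds molecules made before it.

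The mature sequences are shown because the seed, bases 2 to 8 counted from the 5′ end and printed in capitals, sets most of a miRNA's target choice. The sequences are those of RefSeq on the GRCr8 build, where all 4 miRNAs were found on the plus strand of chromosome 10.
rno-miR-212-5p, chr10:60521771-60521794: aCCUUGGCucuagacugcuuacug
rno-miR-212-3p, chr10:60521811-60521832: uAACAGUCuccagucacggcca
rno-miR-132-5p, chr10:60522055-60522076: aCCGUGGCuuucgauuguuacu
rno-miR-132-3p, chr10:60522091-60522112: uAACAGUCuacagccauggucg
The 3p products share the seed AACAGUC and are the same over their first 9 bases. Among the 583 listed miRNAs with a RefSeq mature sequence, no other carried this seed. The 5p products differ at 1 base of the seed, CCGUGGC against CCUUGGC, and no other of these 583 carried either. The paralogous products differed by 5 edits (3p) and 6 edits (5p), more than the 1 mismatch accepted when reads were assigned, and no other of the 583 sequences was closer to any of them. The assignment also accepted 3 nucleotides of end variation, so the margin is smaller than the edits alone. From miR-132-3p to miR-212-3p, the changes U20C and G22A fall in the last 3 bases, and A10C, C14U and U17C do not. The 4 miRNAs span 342 bases, with 222 bases between miR-212-3p and miR-132-5p, in the interval between the coding genes Hic1 and Ovca2.

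Library totals ran from 10374120 to 12533029 counts, and samples that shared a replicate number deviated together from their group means. Neuronal and glia-linked miRNAs were both counted. The summed level of 4 neuronal miRNAs (miR-9a-5p, miR-124-3p, miR-128-3p and miR-138-5p) was 309893 to 411335 normalized RPM in control and 347117 to 444076 in BDNF samples. Most of it was miR-9a-5p, which neural progenitors also express, and the neuron-defining miR-124-3p had 4854 to 6058. The summed level of 4 glia-linked miRNAs, nearly all of it miR-21-5p (above miR-124-3p in every library but control replicate 3), was 5196 to 7381 in control and 5211 to 8117 in BDNF samples. The remaining glia-linked miRNAs were scarce. Over the 6 libraries miR-219a-5p had 21.8 to 26.3, miR-338-3p 5.62 to 11.1 and miR-146a-5p 10.3 to 19.1 normalized RPM. Vascular miRNAs (3 of 3 listed) summed to 127 to 184 and 121 to 192, and those of blood and microglia (4 of 5 listed, without miR-223-3p) to 6.15 to 7.23 and 4.34 to 9.50. Normalized RPM are RPM divided by the TMM scaling factor of the library. Because bulk RNA was sequenced, fewer cells of a type and less of a miRNA per cell cannot be told apart.

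MiR-132-3p was the major product of the locus. It was counted 6300, 10152 and 18929 times in control replicates 1, 2 and 3, and 5856, 8252 and 17444 times in the BDNF replicates. In normalized RPM, control replicates 1, 2 and 3 held 608, 849 and 1688, and the BDNF replicates held 540, 754 and 1351. It ranked between 54th and 102nd of the 649 miRNAs. The conditions overlapped widely, while within each condition replicate 3 stood far above the others.

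MiR-212-5p came next, with 112, 149 and 253 normalized RPM in control and 114, 159 and 299 in BDNF replicates. MiR-132-5p had 58.1, 77.6 and 124 normalized RPM in control and 58.6, 60.0 and 163 in BDNF replicates. MiR-212-3p, which shares the miR-132-3p seed, had 42.9, 70.5 and 143 normalized RPM in control and 35.9, 52.4 and 125 in BDNF replicates. The lowest of all 24 counts of the locus was 389 reads, so that counting error was at most 5.07%, well under the spread between replicates. The order miR-132-3p, then miR-212-5p, held in every library. The other products did not separate, and control replicate 3 had them in the opposite order to the remaining libraries. Such differences between miRNAs are differences in reads, which also depend on how well each end is ligated to the adapters.

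**Figure D1:**
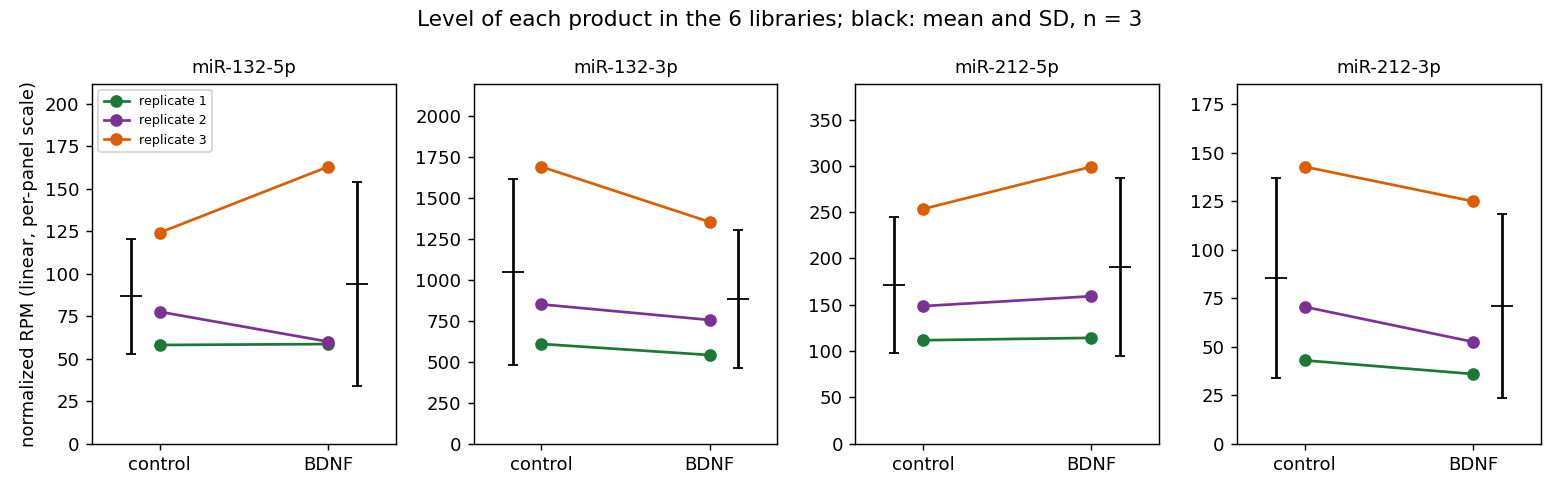
Normalized RPM (linear axis, a separate scale for each panel) of the 4 products in control and BDNF libraries, with points of the same replicate number joined and the mean and SD (n = 3) in black. Replicate 3 is the highest library in every panel and both conditions, at 1688 and 1351 normalized RPM for miR-132-3p, and the shift between conditions is small beside it.

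Of all reads of the locus, miR-132-3p made up 69.7 to 76.4% over the 6 libraries, miR-212-5p 11.5 to 15.5%, miR-132-5p 5.62 to 8.41% and miR-212-3p 4.79 to 6.46%. Over the same libraries, the 4 products together took 0.0695 to 0.239% of a library. The composition of the locus output thus varied far less between libraries than its amount. Within the seed-sharing pair, miR-132-3p exceeded miR-212-3p by 10.8 to 15.1 times. For the 5p products the order was turned round, and miR-132-5p had 0.377 to 0.545 times the reads of miR-212-5p.

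No product of the locus passed as changed by 20 min of BDNF in the test across all 336 miRNAs. In this edgeR fit (quasi-likelihood, no replicate block), 0% of the 336 miRNAs had a Benjamini-Hochberg adjusted P-value below 0.05. At an unadjusted P-value below 0.05, 2.98% of them passed (10 miRNAs, and 12 with DESeq2, which also called none after adjustment), and none of the 4 was included. These miRNAs are known as BDNF- and CREB-induced, but no rise of the mature forms was detected at this time point.

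For the seed-sharing 3p products the estimates lay below 0. MiR-132-3p averaged 1048 ± 567 (SD, n = 3) normalized RPM in control cultures and 882 ± 420 (SD, n = 3) after BDNF. Its fitted log2 fold change (BDNF/control) stood at -0.25 with a standard error of 0.46 (95% interval -1.34 to 0.84), for an adjusted P-value of 0.999 in edgeR. MiR-212-3p averaged 85.4 ± 51.5 (SD, n = 3) normalized RPM in control cultures and 71.1 ± 47.3 (SD, n = 3) after BDNF. Its fitted log2 fold change stood at -0.26 with a standard error of 0.58 (95% interval -1.63 to 1.11), for an adjusted P-value of 0.999 in edgeR. The intervals are wide, and on the linear scale they allow anything from 0.396 to 1.79 times the control level for miR-132-3p and from 0.323 to 2.15 times for miR-212-3p.

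For the 5p products the estimates lay above 0. MiR-212-5p averaged 171 ± 74 (SD, n = 3) normalized RPM in control cultures and 191 ± 96 (SD, n = 3) after BDNF, a log2 fold change of 0.16 (standard error 0.42, 95% interval -0.85 to 1.17). MiR-132-5p averaged 86.6 ± 33.9 (SD, n = 3) normalized RPM in control cultures and 93.9 ± 59.8 (SD, n = 3) after BDNF, a log2 fold change of 0.12 (standard error 0.47, 95% interval -1.0 to 1.23). The adjusted P-value in edgeR was 0.999 for both. The exact permutation test over samples, two-sided, gave P-values of 0.6 to 0.9 for the 4 products, where 3 samples against 3 cannot give less than 0.1.

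Since same-numbered samples deviated together, the replicate number was also fitted as a block. This removed most of the spread. MiR-132-3p was lower with BDNF in 3 of 3 pairs, at 0.889, 0.888 and 0.800 times its control, and its blocked log2 fold change was -0.22 (standard error 0.07, 95% interval -0.37 to -0.07). MiR-212-3p was also lower in 3 of 3 pairs, at 0.836, 0.744 and 0.875 times its control, with a blocked log2 fold change of -0.29 (standard error 0.08, 95% interval -0.48 to -0.10). The unadjusted P-values of 0.010 for miR-132-3p and 0.0085 for miR-212-3p were past 0.05, but the adjusted P-value in edgeR was 0.166 for both. With the block, 20.5% of the 336 miRNAs (26 higher and 43 lower) had an unadjusted P-value below 0.05, and again none passed after adjustment, with a smallest adjusted P-value of 0.12. How many of the 336 kept the same direction in 3 of 3 pairs was not counted, so that agreement has no background here.

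The 5p products did not share this direction within pairs. MiR-212-5p was higher in 3 of 3 pairs, at 1.02, 1.07 and 1.18 times its control, with a blocked log2 fold change of 0.13 (95% interval -0.04 to 0.30) and an adjusted P-value of 0.41 in edgeR. MiR-132-5p was higher in 2 pairs and lower in 1, at 1.01, 0.773 and 1.31 times its control, with a blocked log2 fold change of 0.02 (95% interval -0.29 to 0.33) and an adjusted P-value of 0.966 in edgeR. When pair 3 was left out of the blocked fit, the estimate for miR-132-5p turned to -0.17, and that of miR-132-3p was -0.16 with an unadjusted P-value of 0.13. For miR-212-3p the unadjusted P-value lost its place below 0.05 only without pair 2, at 0.088 with a log2 fold change of -0.22.

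**Figure D2:**
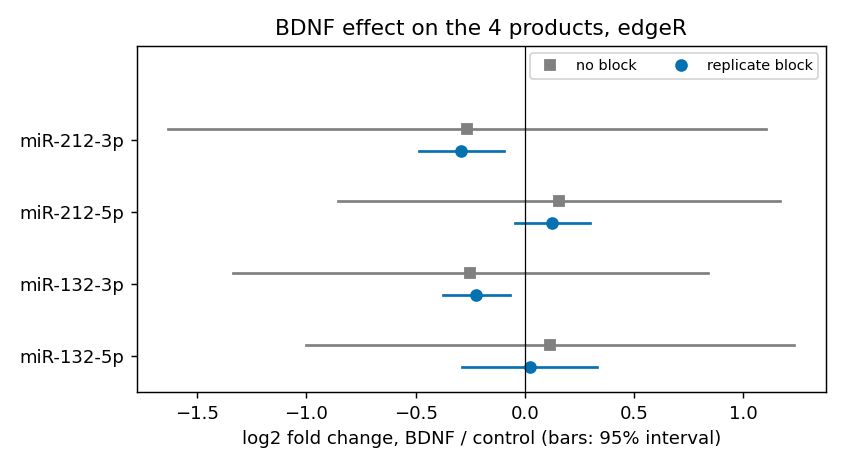
Log2 fold change (BDNF/control) of the 4 products on the x axis, from edgeR without a block (grey squares) and with the replicate number as a block (blue circles), with bars for the 95% interval. The unblocked intervals all span 0, and the blocked ones lie below 0 for miR-132-3p (-0.37 to -0.07) and miR-212-3p (-0.48 to -0.10), neither past the adjusted threshold.

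Leaving out 1 library turned the direction of the unblocked estimates. This leaves the conditions with unequal replicate numbers, between which the levels of the locus differed. Without control replicate 3 the log2 fold change became 0.29 for miR-132-3p and 0.35 for miR-212-3p, and without BDNF replicate 1 it was 0.001 and 0.05. The 5p products turned in the same way, to -0.07 (miR-132-5p) and -0.04 (miR-212-5p) without control replicate 1, and to -0.55 and -0.32 without BDNF replicate 3. With both libraries of replicate 1, 2 or 3 left out, the direction was kept for miR-132-3p (-0.26, -0.28 and -0.16), miR-212-3p (-0.25, -0.21 and -0.35) and miR-212-5p (0.20, 0.18 and 0.08), and it turned for miR-132-5p without replicate 3, at -0.18.

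The ratio of the arms compares products of the same hairpin within a library and needs no scaling between libraries. From the miR-132 hairpin the 3p arm prevailed, and the 5p arm gave 8.72, 8.38 and 6.85% of the reads of the hairpin in control replicates 1, 2 and 3 and 9.78, 7.37 and 10.8% in the BDNF replicates. From the miR-212 hairpin the 5p arm prevailed, with 72.2, 67.8 and 64.0% in control and 76.1, 75.2 and 70.5% in BDNF replicates. The Wilson 95% interval of the lowest of these miR-212 shares was 62.5 to 65.4%, and that of the highest 74.0 to 78.1%, which cover counting error only. The prevailing arm thus differed between the neighbouring hairpins in all 6 libraries. Among the 83 precursors with both arms past the filter, 47 had more 5p and 36 more 3p reads in control samples.

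The log2 5p/3p ratio of miR-212 was 1.38, 1.08 and 0.83 in control and 1.67, 1.60 and 1.26 in BDNF replicates. It was higher with BDNF in 3 of 3 pairs, as were the ratios of 11 of the 83 precursors, while 21 were lower in every pair. The miR-212 groups overlapped, because BDNF replicate 3 lay below control replicate 1. The means were 1.09 ± 0.28 (SD, n = 3) in control cultures and 1.51 ± 0.22 (SD, n = 3) after BDNF. The difference of 0.42 (standard error 0.19, 95% interval -0.02 to 0.85) gave 0.059 as its unadjusted P-value and 0.956 as its adjusted P-value in limma, where 3.61% of the 83 precursors were below an unadjusted 0.05. With the replicate block the difference of 0.42 (standard error 0.10, 95% interval 0.17 to 0.66) gave 0.0055 as its unadjusted P-value, rank 2 of the 83, and 0.229 as its adjusted P-value in limma. In that fit 12% of the precursors were below an unadjusted 0.05. The blocked unadjusted P-value was 0.0091, 0.023 and 0.075 when pairs 1, 2 and 3 were left out.

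The log2 5p/3p ratio of miR-132 was -3.39, -3.45 and -3.77 in control and -3.21, -3.65 and -3.05 in BDNF replicates, higher in 2 of 3 pairs. The difference was 0.23 (standard error 0.19, 95% interval -0.21 to 0.68), and limma gave it an adjusted P-value of 0.956. It rested on replicate 3, and without that pair it was -0.0084. The exact permutation test over samples, two-sided, gave P-values of 0.2 for miR-212 and 0.4 for miR-132.

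**Figure D3:**
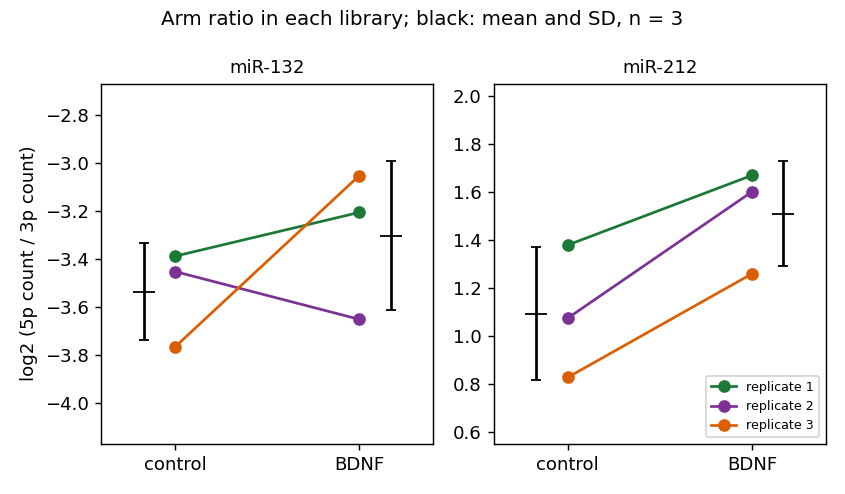
Log2 of the 5p count over the 3p count for the miR-132 and miR-212 hairpins in control and BDNF libraries, with points of the same replicate number joined and the mean and SD (n = 3) in black. All 3 lines climb for miR-212, from 1.09 to 1.51 on average, whereas those of miR-132 go both ways. Of the 83 precursors tested, 11 were higher and 21 lower with BDNF in every pair.

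Whether the paralogous hairpins answered BDNF differently was asked from the ratio of miR-132 to miR-212 within each library. For the 3p products the log2 ratio was 3.66 ± 0.14 (SD, n = 3) in control cultures and 3.73 ± 0.26 (SD, n = 3) after BDNF. For the 5p products it was -0.97 ± 0.05 (SD, n = 3) in control cultures and -1.08 ± 0.28 (SD, n = 3) after BDNF. The differences of 0.07 and -0.11 were within the spread between replicates, with a P-value of 0.8 in the exact two-sided permutation test for each and 0.8 after adjustment over both.

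The replicate number moved these miRNAs far more than BDNF did. Averaged over both conditions on the log2 scale, replicate 3 exceeded replicate 1 by 3.40 times for miR-212-3p, 2.64 times for miR-132-3p, 2.44 times for miR-132-5p and 2.44 times for miR-212-5p. The median fold between the highest and lowest replicate over the 336 miRNAs was 1.27, and only 16 exceeded a fold of 2. By this measure miR-212-3p had rank 1 of the 336, miR-132-3p rank 5, miR-132-5p rank 7 and miR-212-5p rank 8. The spread was present in each condition alone, at 2.14 to 3.32 times between control samples and 2.50 to 3.48 times between BDNF samples, against medians of 1.29 and 1.26.

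The replicate number was tested with edgeR's quasi-likelihood test with the condition in the model, a comparison added after the values had been seen. Of the 336 miRNAs, 48.2% had an adjusted P-value below 0.05, among them all 4 products of the locus. Their adjusted P-values in edgeR were 3.48e-05 for miR-132-3p and for miR-212-3p, 9.39e-05 for miR-212-5p and 0.0011 for miR-132-5p. All 4 stayed below 0.05 with each of the 6 libraries left out in turn, the largest adjusted P-value being 0.027 for miR-132-5p. The number of miRNAs called, 162, fell to 66 without control replicate 3 and to 66 without BDNF replicate 3. The study calls the samples biological replicates from independent experiments, and it sequenced all 6 libraries together in a single lane. Whether a replicate number also stands for a dissection, a day or a batch of library preparation is not given in the sources used here.

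**Figure D4:**
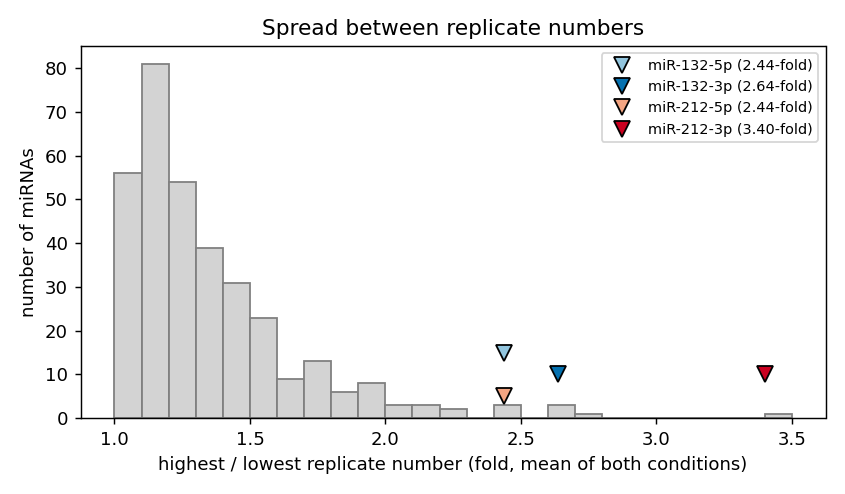
Histogram of the fold between the highest and lowest replicate number (mean of both conditions, x axis) over the 336 miRNAs, with a triangle for each of the 4 products. Most miRNAs lie near the median of 1.27, and the 4 products lie between 2.44 and 3.40; the height of the triangles carries no value.

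Other measures moved with the replicate number too. The summed glia-linked miRNAs were lowest in replicate 3, at 5196 (control) and 5211 (BDNF) normalized RPM, against 6980 to 8117 in the other libraries. Nearly all of this sum was miR-21-5p, at 5154 and 5165 in replicate 3. MiR-219a-5p was also lowest in replicate 3 of each condition (21.8 and 24.1). MiR-338-3p was lowest of its condition in control replicate 3 (5.62) but not in BDNF replicate 3 (8.67). MiR-146a-5p was lowest in neither (15.1 and 13.3). The summed neuronal miRNAs were also lowest in replicate 3, at 309893 and 347117 against 387422 to 444076. MiR-9a-5p, most of that sum, was at 230892 and 260023 in replicate 3, its lowest libraries. The other neuronal miRNAs did not share this in both conditions. MiR-138-5p was highest in replicate 3 of each condition, at 392 (control) and 312 (BDNF) normalized RPM. MiR-124-3p was highest of its condition in control replicate 3 (5192) but lowest in BDNF replicate 3 (4854). MiR-128-3p was lowest of its condition in control replicate 3 (73417) but not in BDNF replicate 3 (81928). The summed vascular miRNAs were highest in replicate 1, at 184 and 192 against 121 to 130. The part of these differences in the result was not tested.

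Base composition also moved with the replicate number. Across the 307 of the 336 miRNAs with a RefSeq sequence (91.4%), the log2 difference of replicate 3 over replicate 1 was larger at a higher share of G and C in the mature miRNA, with a Pearson r of 0.42 and a Spearman coefficient of 0.44, given as a description since the miRNAs share libraries. The members lay near the middle of the range of 23.8 to 77.3%, with 45.5% G and C in miR-132-5p, 50.0% in miR-132-3p and in miR-212-5p, and 54.5% in miR-212-3p, against a median of 47.6%. Their log2 differences of 1.29, 1.4, 1.29 and 1.77 were above those of all non-members within 3 percentage points of their own G and C share. These non-members numbered 87, 69, 69 and 45, with medians of 0.01, 0.07, 0.07 and 0.19 and highest values of 1.16, 1.16, 1.16 and 1.43. The products already ranked near the top by the spread between replicates, so this comparison mostly repeats that ranking. The part of base composition in their spread was not tested.

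**Figure D5:**
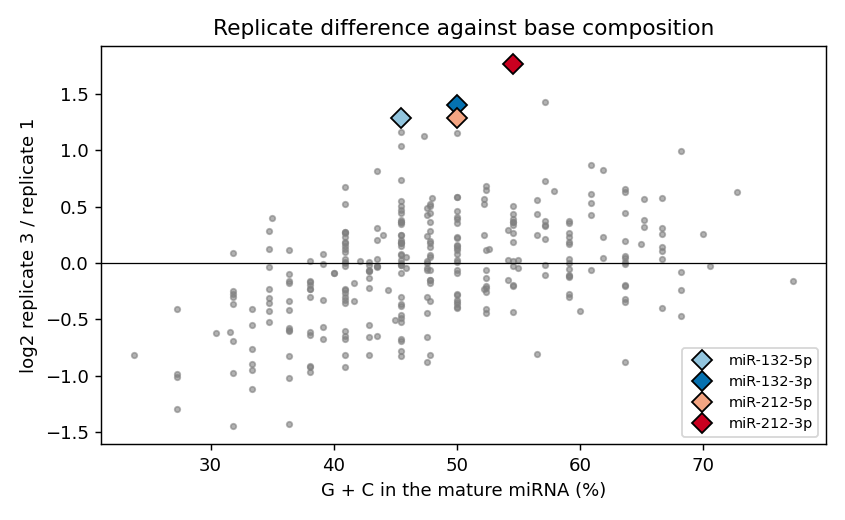
Log2 difference of replicate 3 over replicate 1 (y axis) against the share of G and C in the mature miRNA in percent (x axis) for 307 miRNAs, with the 4 products as diamonds. The cloud climbs with G and C (r = 0.42), and the 4 products lie between 1.29 and 1.77, above the other miRNAs of like composition. Their place near the top by replicate spread was known beforehand, and the part of base composition was not tested.

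For each product, the 3 non-members whose profile over the 6 libraries was most like its own were taken, and several of them recurred between products. Likeness was measured as the root-mean-square difference of log2 normalized RPM, each miRNA centred on its own mean. For miR-132-3p the nearest were miR-344b-3p at 0.11, miR-129-1-3p at 0.12 and miR-129-2-3p at 0.13, followed by its seed partner miR-212-3p at 0.17, where the median of all others was 0.61. MiR-212-3p had miR-132-3p as its nearest of all, at 0.17, followed by miR-129-5p at 0.23. For miR-212-5p the nearest were miR-129-5p at 0.13, miR-770-5p and miR-344b-5p, both at 0.15, and then miR-132-5p at 0.18. For miR-132-5p the nearest were miR-129-5p at 0.13, miR-212-5p at 0.18, miR-129-2-3p at 0.18 and miR-344b-5p at 0.20. In both hairpins each arm was thus closer to the same arm of the paralogue than to the opposite arm of its own hairpin, which lay at 0.24 (miR-132) and 0.29 (miR-212).

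MiR-129 is a brain-enriched miRNA and miR-344b belongs to a family found in rodents. MiR-129-5p ran from 2815 normalized RPM in control replicate 1 to 8014 in BDNF replicate 3, and miR-129-2-3p from 919 to 2308. MiR-344b-3p was scarce, at 11 to 31 normalized RPM. None of these neighbours passed the BDNF comparison, with adjusted P-values of 0.999 in edgeR. With the replicate block, miR-129-1-3p, miR-129-2-3p and miR-344b-3p had unadjusted P-values of 0.014, 0.021 and 0.015, with estimates below 0 as for miR-132-3p and miR-212-3p, and adjusted P-values of 0.166, 0.173 and 0.166 in edgeR. In all these neighbours replicate 3 was the highest library of both conditions. The sequence listed for miR-129-1-3p is contained in that of miR-129-2-3p, so that the division of reads between them is uncertain.

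Other miRNAs linked to activity, ERK, Mef2 or neurotrophins were listed for comparison. Of these 13, 12 were tested, as miR-184 lay below the filter, and 3 of them (miR-124-3p, miR-138-5p and miR-146a-5p) are also among the cell type markers above. In edgeR none passed an adjusted 0.05 in either direction, and none an unadjusted 0.05 (against 10 of all 336 miRNAs, and 12 of them in DESeq2), with estimates above 0 for 7 and below 0 for 5. Their median log2 fold change was 0.04, against -0.0015 over all 336. With the replicate block 1 was higher and 2 were lower at an unadjusted P-value below 0.05, where 20.5% of all 336 miRNAs were, and none after adjustment. The median fold between replicates was 1.28, close to the 1.27 of all miRNAs and below that of each of the 4 products of the locus.

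MiR-138-5p, which restrains spine growth, had the smallest P-value of the list, with 273, 338 and 392 normalized RPM in control and 246, 265 and 312 in BDNF replicates. The log2 fold change of -0.29 had a standard error of 0.16 and an adjusted P-value of 0.999 in edgeR. It was lower with BDNF in 3 of 3 pairs, and with the replicate block its unadjusted P-value was 0.0046 and its adjusted one 0.139. MiR-329-3p, from the imprinted cluster that Mef2 drives, followed, with 179, 206 and 227 in control and 179, 147 and 193 in BDNF replicates and a log2 fold change of -0.24 (standard error 0.15). Its blocked P-values were 0.040 unadjusted and 0.230 adjusted in edgeR. MiR-134-5p, from the same cluster and a regulator of dendritic spines, was nearly level, at 798, 774 and 858 in control and 785, 817 and 939 in BDNF replicates, with a log2 fold change of 0.06 (standard error 0.10).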

How the data were processed

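Small RNA was sequenced from 3 control and 3 BDNF samples, grouped by their titles. The authors trimmed the 3′ adapter, filtered reads by quality, dropped those under 15 nucleotides and assigned the rest with Miraligner (1 mismatch, 3 nucleotides of end variation) to rat miRNAs of miRBase v21. They deposited raw counts per mature miRNA. Tool versions and the treatment of reads matching several miRNAs are not given in the sources used here. The labels give 7 days in vitro, and the study 6 for the sequenced neurons.

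RPM were computed from the column sums (10374120 to 12533029), and normalized RPM with TMM factors (0.928 to 1.085). Testing was limited to the 336 miRNAs reaching a mean of 10 RPM in either condition, and was done with edgeR 4.0.16 (quasi-likelihood, Benjamini-Hochberg) in R 4.3.3, and log2 5p/3p ratios of 83 precursors with limma 3.58.1 with a variance trend. DESeq2 1.42.0 was an alternative. Standard errors of the edgeR fits are the size of the log2 fold change divided by the square root of F. Those of the 5p/3p ratios come from the limma fit. Scripts were tested on simulated data. P-values measure the spread between these samples, which the study calls independent experiments.

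Same-numbered samples deviated together from their group means, with correlations over miRNAs of 0.80, 0.48 and 0.89 for numbers 1, 2 and 3, so the numbers were taken to pair the samples. No pair of libraries of a condition was as alike as sampling noise allows (chi-square of at least 220 per degree of freedom).

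The members and lists were chosen with earlier results of these data known. Named miRNAs are the 4 members, the 3 non-members nearest to each in profile, and of the activity list miR-134-5p and those with the 2 smallest P-values. MiRNA sequences and positions are from RefSeq (GRCr8), and all 4 members matched by name. Isoforms by read end were not analysed here.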

Additional observations from a re-analysis of the deposited data

How the results depend on the processing

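None of the 16 alternatives counted over all tested miRNAs gave any of them an adjusted P-value below 0.05 for BDNF. The blocked count fits with a pair left out were read for the products of the locus only. Their smallest adjusted P-value in edgeR was 0.105. The number below an unadjusted 0.05, 10 at first, was 6 with library sizes alone and 69 with the replicate block, and 0 to 32 when single samples or same-numbered pairs were left out. For the 5p/3p ratio, 3 precursors became 6 without the filter, 10 with the block and 0 to 8 on leaving samples or pairs out.

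Leaving out samples or pairs gave log2 fold changes of -0.55 to 0.49 for miR-132-5p, -0.70 to 0.29 for miR-132-3p, -0.32 to 0.57 for miR-212-5p and -0.95 to 0.35 for miR-212-3p. Removing 1 sample leaves the conditions with different replicate numbers, whose levels differ. The 5p/3p change of miR-132 ran from -0.0084 to 0.45. The change in the miR-132 to miR-212 ratio ran from -0.020 to 0.22 (3p) and from -0.24 to 0.067 (5p). With the block and without pair 3, miR-132-5p was at -0.17 and the miR-132 arm ratio at -0.0084. The cause was not tested. MiRNAs differing between replicate numbers, 162 at first, were 66 to 182 with 1 library left out and 66 to 197 over all alternatives. Fits without pairs, and of the replicate number, were chosen after seeing the data. The pairing changed no adjusted call.

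The unblocked 95% intervals of the fold, 0.396 to 1.79 for miR-132-3p, 0.323 to 2.15 for miR-212-3p, 0.50 to 2.35 for miR-132-5p and 0.554 to 2.25 for miR-212-5p, were set by the spread between samples, and counting error was not the limit.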
